A study of Mus musculus with 6 samples.

Results

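The 6 genes of collagen IV, Col4a1 to Col4a6, were followed in clonal mouse embryonic fibroblast lines without Macf1 and in heterozygous control lines. The genes were taken by symbol as the head-to-head pairs Col4a1/Col4a2, Col4a3/Col4a4 and Col4a5/Col4a6, and the estimated counts of all transcripts of each gene were summed. All 6 were among the 12745 genes tested, of 32028 genes with a transcript in the count table. The knockout group held 3 clones from Macf1flox/flox embryonic fibroblasts, carrying the Macf1-/- genotype after recombination. The het group held 3 clones from Macf1flox/+ fibroblasts, carrying Macf1-/+, so the controls also lacked 1 copy of Macf1. Macf1 encodes a spectraplakin, a large protein that links microtubules to actin. Both groups were immortalised with the SV40 large T antigen, exposed overnight to an AAV8 virus in which the CMV promoter, active in most cell types, drives Cre, and then grown from single cells. Each line is therefore 1 clone, and no source says whether the clones of a group came from different embryos. The p-values below thus measure the spread between clones, and genotype cannot be told apart from embryo of origin. These p-values treat the clones of a group as independent, which was not tested. Polyadenylated RNA of confluent cultures was sequenced with a stranded kit.

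Collagen IV is the network-forming collagen of basement membranes, the sheets of matrix under epithelia and around muscle, nerve and capillaries. Its chains assemble inside the cell into trimers of fixed makeup, and the trimers join at their ends into a net. The Col4a1 and Col4a2 chains make the trimer found in nearly all basement membranes, the Col4a3, Col4a4 and Col4a5 chains make that of the mature glomerular filter, and Col4a5 and Col4a6 chains make a trimer of smooth muscle and some epithelial basement membranes. The 3 gene pairs lie head to head, each pair transcribed in opposite directions from a shared start region.

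The knockout libraries held 17420060, 16581833 and 18209673 estimated counts and the het libraries 16972123, 17614982 and 15661342. Counts of Macf1 averaged 331 ± 27.9 CPM (counts scaled to library size) in knockout clones and 656 ± 66.6 CPM in het clones (SD, n = 3 each), and no library overlapped the other group. No source names the exons that Cre removes, and transcript outside them can remain. Of the fibroblast markers, Vim was at 1595 to 3606 CPM in knockout clones and 2147 to 2818 CPM in het clones, while Thy1 and Lum had at most 3 counts in every library. Col1a1 was at 2.69 to 13.8 CPM in knockout clones and 1019 to 1498 CPM in het clones, and 7 of the 8 fibroblast markers tested were lower in knockout clones. Summed markers of endothelial cells were at 4.34 to 4.76 CPM in knockout clones and 2.81 to 4.83 CPM in het clones, and those of epithelial cells at 1.34 to 1.55 CPM in knockout clones and 17.1 to 58.5 CPM in het clones. Krt19 made up most of the epithelial sum in het clones, at 15.9, 55.5 and 51.7 CPM, while Cdh1 and Epcam were under 1 CPM in every library. Summed markers of smooth muscle and pericytes were at 9.22 to 14.9 CPM in knockout clones and 206 to 234 CPM in het clones, where Cspg4, Tagln and Acta2 made up most of it while Des was higher in knockout clones (log2 fold change 1.48, edgeR adjusted p = 0.0411), and skeletal muscle markers were at 0 in all libraries. Schwann cell markers summed to 2.69 to 3.57 CPM in knockout and 2.57 to 3.95 CPM in het clones, and immune markers to 4.95 to 5.72 CPM in knockout and 4.61 to 6.08 CPM in het clones. The part of these marker differences in the results below was not tested. Het replicate 1 stood apart from its group, with a correlation of log2 CPM of 0.947 and 0.940 with the other het clones. Het replicates 2 and 3 correlated at 0.981 with each other. The knockout clones were closer, at 0.991 for replicates 1 and 2, and 0.974 and 0.980 for replicate 3 with replicates 1 and 2. In these bulk libraries fewer expressing cells and less RNA per cell cannot be told apart.

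The start regions of the 3 pairs differ in how closely the genes of a pair adjoin. Col4a1 (ENSMUSG00000031502, chromosome 8, minus strand, start at 11312826) and Col4a2 (ENSMUSG00000031503, plus strand, start at 11312805) overlap by 22 bases in the GENCODE M21 annotation of GRCm38. Col4a4 (ENSMUSG00000067158, chromosome 1, minus strand, start at 82586849) and Col4a3 (ENSMUSG00000079465, plus strand, start at 82586921) begin 72 bases apart. Col4a6 (ENSMUSG00000031273, chromosome X, minus strand, start at 141474076) and Col4a5 (ENSMUSG00000031274, plus strand, start at 141475385) begin 1309 bases apart. RefSeq start windows on GRCm38.p6, each of 250 bases before and 50 after a gene's start, matched 5 of the 6 genes. The Col4a1 and Col4a4 windows are shown because each holds the starts of both genes of its pair, with the bases between the starts, ends included, in capitals.
Col4a1: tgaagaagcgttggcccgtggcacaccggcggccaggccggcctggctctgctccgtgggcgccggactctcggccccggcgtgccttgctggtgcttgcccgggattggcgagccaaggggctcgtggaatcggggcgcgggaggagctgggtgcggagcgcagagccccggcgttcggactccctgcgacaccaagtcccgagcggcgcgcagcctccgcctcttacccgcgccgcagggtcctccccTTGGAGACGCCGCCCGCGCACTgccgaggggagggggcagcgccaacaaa
Col4a4: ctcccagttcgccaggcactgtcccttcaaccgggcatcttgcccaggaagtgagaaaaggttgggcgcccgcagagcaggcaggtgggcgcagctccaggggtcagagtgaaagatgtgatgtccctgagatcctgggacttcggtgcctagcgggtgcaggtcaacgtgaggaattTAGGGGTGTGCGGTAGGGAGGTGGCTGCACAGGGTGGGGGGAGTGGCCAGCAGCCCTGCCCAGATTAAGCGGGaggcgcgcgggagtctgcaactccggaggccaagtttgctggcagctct
The first of these covers chr8:11312777-11313076 and the second chr1:82586800-82587099, both read on the minus strand.

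The windows of the X-linked pair are shown because this pair had the highest fold changes, and neither window reaches its partner's start. Their first 50 transcribed bases are in capitals.
Col4a5: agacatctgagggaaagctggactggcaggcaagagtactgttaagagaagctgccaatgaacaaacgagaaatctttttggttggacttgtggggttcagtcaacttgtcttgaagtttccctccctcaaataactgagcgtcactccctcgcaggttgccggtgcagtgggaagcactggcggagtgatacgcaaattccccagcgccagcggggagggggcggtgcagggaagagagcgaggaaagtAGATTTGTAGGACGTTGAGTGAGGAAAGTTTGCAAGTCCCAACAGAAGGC
Col4a6: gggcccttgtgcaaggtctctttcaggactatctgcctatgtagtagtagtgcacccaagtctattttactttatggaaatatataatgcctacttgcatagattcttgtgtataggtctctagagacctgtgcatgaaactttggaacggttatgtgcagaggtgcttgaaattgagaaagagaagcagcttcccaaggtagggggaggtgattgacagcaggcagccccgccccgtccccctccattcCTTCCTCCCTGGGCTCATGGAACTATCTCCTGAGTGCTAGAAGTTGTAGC
The Col4a5 window is chrX:141475169-141475468 on the plus strand, with the RefSeq start at 141475419, inside the first GENCODE exon. The Col4a6 window is chrX:141474027-141474326 on the minus strand. GC content was 74% for Col4a1, 73.7% for Col4a2, 63.3% for Col4a4, 52.7% for Col4a5 and 48.3% for Col4a6, against a median of 52.7% over 32851 RefSeq windows. The Col4a1 and Col4a2 windows, which share 78 bases, held 37 and 33 CpG dinucleotides, those of Col4a4 and Col4a5 14 and 11, and that of Col4a6 3, against a median of 7. The Col4a1/Col4a2 start region was thus the richest in CpG of those examined and that of Col4a6 the poorest. On either strand, the letters GGGCGG (the GC box) occurred once in the Col4a1, Col4a5 and Col4a6 windows, 3 times in that of Col4a2 and not in that of Col4a4, and 35.7% of all windows held them. The letters CCAAT occurred once each in the Col4a1, Col4a2 and Col4a5 windows and in 37.4% of all windows. TATAAA was in none of the 5 and in 13.6% of all windows, and no match overlapped one of another motif.

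Transcript levels of 4 of the 6 chain genes were higher in knockout clones than in het clones, none was lower, and 2 did not pass the test. The chains that passed were Col4a1, Col4a2, Col4a5 and Col4a6, by edgeR's quasi-likelihood test at a Benjamini-Hochberg adjusted p under 0.05 over all genes. Over all genes tested, 13.9% passed as higher in knockout clones and 14.2% as lower. For 5 chains every knockout clone lay above every het clone, a separation in this direction that 23.8% of all genes showed. The median log2 fold change, knockout over het, was 2.40 over the 6 chains and -0.00 over all genes tested. When knockout replicate 1 or knockout replicate 2 was left out, only Col4a5 and Col4a6 passed, and 855 or 695 of all genes then passed as higher in place of 1771.

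**Figure D1:**
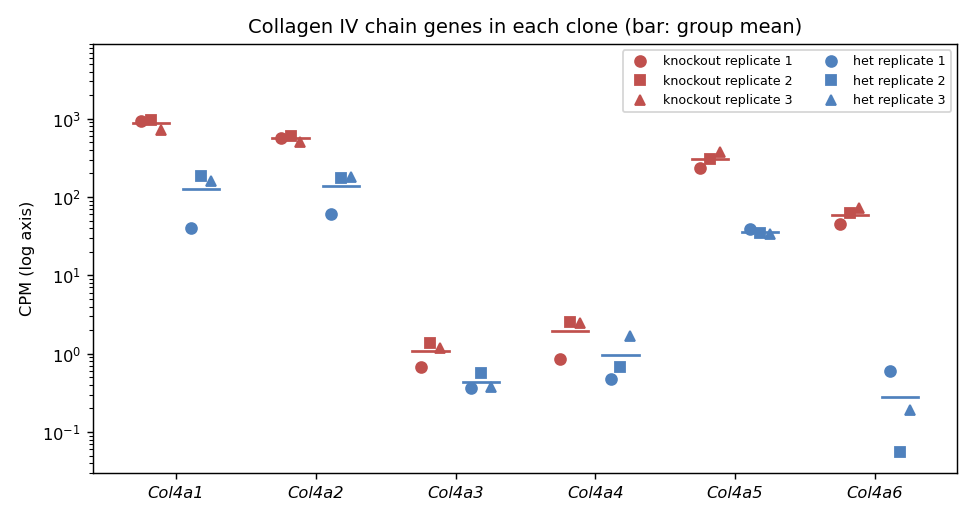
Level of each collagen IV chain gene in CPM (log axis) in 3 knockout clones (red, left) and 3 het clones (blue, right), with 1 symbol per replicate and a bar at the group mean. Col4a1, Col4a2, Col4a3, Col4a5 and Col4a6 have all knockout clones above all het clones, and Col4a4 does not.

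The Col4a1 and Col4a2 genes, which encode the chains of the ubiquitous trimer, were the most abundant members. Col4a1 was at 928, 968 and 722 CPM in knockout clones, against 40, 183 and 158 CPM in het clones. Every knockout clone exceeded every het clone, and het replicate 1 was far below the other het clones. Means were 873 ± 132 CPM in knockout and 127 ± 76.4 CPM in het clones (SD, n = 3 each), a log2 fold change of 2.78 (SE 0.55, edgeR quasi-likelihood adjusted p = 0.0144). Col4a2 was at 571, 605 and 506 CPM in knockout clones, against 59.9, 174 and 182 CPM in het clones. Its groups were also apart, again with het replicate 1 lowest. Means were 561 ± 50.3 CPM in knockout and 139 ± 68.3 CPM in het clones, a log2 fold change of 2.02 (SE 0.41, adjusted p = 0.0146). The knockout clones were close to each other, with a highest-to-lowest ratio of 1.34 for Col4a1 and 1.2 for Col4a2, against 4.57 and 3.04 among the het clones.

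Leaving out het replicate 1 gave smaller changes with smaller adjusted p, of 2.35 (SE 0.20, edgeR adjusted p = 0.000626) for Col4a1 and 1.65 (adjusted p = 0.000681) for Col4a2. That fit drops the lowest het clone, so the smaller SE reflects how close the remaining het clones were to each other. Leaving out knockout replicate 1 ended both calls, with adjusted p = 0.0548 for Col4a1 and 0.054 for Col4a2 where the Col4a1 log2 fold change was 2.73. Leaving out knockout replicate 2 did the same, with adjusted p = 0.0544 for Col4a1 and 0.0562 for Col4a2 and log2 fold changes of 2.70 and 1.96. Both sizes therefore stayed near those from all clones where the call was lost.

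The balance within the pair also differed in value. The log2 ratio of Col4a1 to Col4a2 counts was 0.70, 0.68 and 0.51 in knockout clones, against -0.58, 0.08 and -0.21 in het clones. The ratios of the groups did not overlap, and het replicate 1 had the lowest. Their means differed by 0.87 on the log2 scale, with a two-sided exact permutation p = 0.1, the smallest that 3 clones against 3 can give. Per kilobase of transcript, the Col4a1 level was 1.58, 1.69 and 1.34 times that of Col4a2 in knockout clones, against 0.673, 0.971 and 0.773 times in het clones. Col4a1 thus had the higher level per kilobase in every knockout clone. Col4a2 had it in every het clone, but in het replicate 2 the levels were close and the log2 count ratio of 0.08 favoured Col4a1. Each transcript was divided by its own length, so short transcripts weigh more, such as Col4a2-202 (a retained intron of 921 bases, 8.51 CPM in het replicate 2).

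The X-linked pair, Col4a5 and Col4a6, had the highest fold changes among the chains, although that of Col4a5 was within 1 SE of that of Col4a1. Col4a5, whose chain enters both tissue-restricted trimers, was at 233, 304 and 371 CPM in knockout clones, against 38.6, 34.7 and 34 CPM in het clones. The het clones were nearly equal, and the lowest knockout clone was far above them. Means were 302 ± 69.1 CPM in knockout and 35.8 ± 2.47 CPM in het clones (SD, n = 3 each), a log2 fold change of 3.08 (SE 0.19, edgeR adjusted p = 0.000157). All 16 alternatives kept that call, with log2 fold changes of 2.90 to 3.23. Col4a6, the partner chain in the smooth muscle trimer, was at 45.5, 62.3 and 71.6 CPM in knockout clones, against 0.598, 0.0562 and 0.188 CPM in het clones. In estimated counts these were 745, 1012 and 1385 in knockout clones and 10, 1 and 3 in het clones. Only het replicate 1 had more than 3 counts among the controls, so Col4a6 was at or near the limit of detection in the other het clones and plainly present in every knockout clone.

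Pooled over clones, Col4a6 was 218 times higher in knockout than in het clones, with an exact 95% interval of 130 to 399 that covers counting error only. Its fitted log2 fold change was 7.71 (SE 0.51, edgeR adjusted p = 0.000333), 8.88 without het replicate 1, and 3.28 or 6.05 on FPKM with a pseudocount of 1 or 0.1, and the call held in 16 of 16 alternatives. The log2 ratio of Col4a6 to Col4a5 counts was -2.35, -2.29 and -2.37 in knockout clones, against -5.94, -8.69 and -7.28 in het clones. The knockout clones held nearly 1 ratio, while the het clones spread widely around far lower values. The het ratios rest on 10, 1 and 3 counts of Col4a6 and a pseudocount of 0.5, so their spread includes counting error. The means differed by 4.96 on the log2 scale (two-sided exact permutation p = 0.1, the smallest possible), by 4.27 without het replicate 2, by 5.64 without het replicate 1 and by 2.96 on FPKM. Counts of 4 Y-linked genes summed to 255, 268 and 367 CPM in knockout clones, against 204, 4.05 and 4.89 CPM in het clones. Of these, Ddx3y was at 0, 0.185 and 0.207 CPM in knockout clones and at 60 CPM in het replicate 1, so the knockout clones and het replicate 1 differed in this gene while sharing the other Y-linked transcripts. Col4a5 was at 38.6 CPM in het replicate 1, beside 34.7 and 34 CPM in the het clones with almost no Y-linked transcript. Col4a6 was at 0.598 CPM in het replicate 1, beside 0.0562 and 0.188 CPM in those clones. The part of the Y-linked differences in the results for the X-linked pair was not tested. Of the 399 genes tested on chromosome X, 17% passed as higher in knockout clones and 13.5% as lower.

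Col4a3 and Col4a4, whose chains join Col4a5 in the glomerular trimer, had few counts in all clones. Col4a3 was at 0.672, 1.35 and 1.19 CPM in knockout clones, against 0.359, 0.562 and 0.376 CPM in het clones, that is, 11, 22 and 23 estimated counts against 6, 10 and 6. The groups did not overlap, but the difference did not pass, with a log2 fold change of 1.29 (SE 0.43, edgeR adjusted p = 0.0617). Col4a4 was at 0.855, 2.52 and 2.43 CPM in knockout clones, against 0.479, 0.675 and 1.69 CPM in het clones. Het replicate 3 lay above knockout replicate 1, and the log2 fold change was 1.03 (SE 0.61, adjusted p = 0.246). Neither gene passed under any alternative run, 12 for Col4a3 and 13 for Col4a4. With so few counts, neither is called here, which does not show that they were alike between genotypes. The Col4a4 to Col4a3 log2 ratio differed by -0.16 between the groups (exact permutation p = 0.9), and by 0.42 without het replicate 3 and 0.04 without knockout replicate 1.

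**Figure D2:**
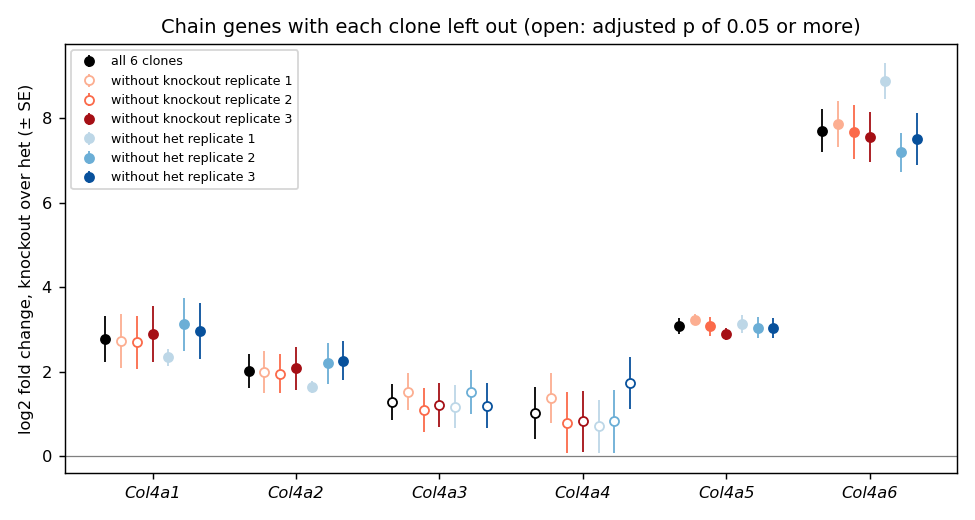
Log2 fold change, knockout over het, of each chain gene with all 6 clones and with each clone left out in turn, with bars of 1 SE, and open symbols where the adjusted p was 0.05 or more. Col4a5 and Col4a6 stay filled throughout, Col4a1 and Col4a2 open without knockout replicate 1 or 2, and Col4a3 and Col4a4 are open throughout.

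Because the chains are assembled together, their levels were also compared per kilobase of transcript. The 6 chains summed to 304, 328 and 275 CPM per kilobase in knockout clones, against 25, 75.4 and 67.8 CPM per kilobase in het clones. Means were 302 ± 26.8 in knockout and 56.1 ± 27.2 in het clones, and the groups were far apart. In knockout clones the order of mean level per kilobase was Col4a1 (146 ± 28), Col4a2 (94.5 ± 8.12), Col4a5 (52 ± 12), Col4a6 (9.13 ± 2.04), Col4a4 (0.191) and Col4a3 (0.16). In het clones it was Col4a2 (27 ± 13.9), Col4a1 (22.8 ± 13.9), Col4a5 (6.11 ± 0.417), Col4a4 (0.0939), Col4a3 (0.0506) and Col4a6 (0.0423). Neighbours in these orders whose means lay within their spread over clones were Col4a4 and Col4a3 in both groups, and Col4a2 and Col4a1, and Col4a3 and Col4a6, in het clones. Within single het clones, however, Col4a2 was above Col4a1, and Col4a4 above Col4a3, in all 3. The Col4a2 lead was narrow in het replicate 2 (35.1 against 34.1 CPM per kilobase) and rested there on short transcripts. Among the full-length ones in that clone, Col4a1-201 (6615 bases) was at 180 CPM and Col4a2-201 (6450 bases) at 165 CPM. The Col4a4 lead rested on 8, 12 and 27 estimated counts against 6, 10 and 6, too few to settle an order. Among the 12745 genes ranked by mean level per kilobase, Col4a1 stood at 557 in knockout and 4371 in het clones, Col4a5 at 1949 in knockout and 8587 in het clones, and Col4a6 at 7304 in knockout and 12636 in het clones.

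As a share of the summed chain level per kilobase, Col4a6 made up 2.27%, 2.94% and 3.96% in knockout clones, against 0.361%, 0.0112% and 0.0417% in het clones. Col4a2 made up 32.8%, 30.1% and 31% in knockout clones, against 43.7%, 46.5% and 51.5% in het clones. The Col4a6 shares were all higher, and the Col4a2 shares all lower, in knockout clones. The Col4a1 share overlapped between groups, at 51.7%, 50.9% and 41.6% in knockout clones and 29.4%, 45.2% and 39.8% in het clones. The Col4a5 share also overlapped, at 13.1%, 16% and 23.2% in knockout clones and 26.2%, 8.09% and 8.4% in het clones, with het replicate 1 the highest of all. Col4a3 and Col4a4 together made up 0.118 ± 0.0527% in knockout and 0.282 ± 0.0947% in het clones. In CPM, knockout replicate 3 was lowest in its group for Col4a1 and Col4a2 and highest for Col4a5 and Col4a6. The Col4a1/Col4a2 pair and the X-linked pair thus parted in knockout replicate 3. In knockout replicate 2, each of these genes was above its level in knockout replicate 1.

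**Figure D3:**
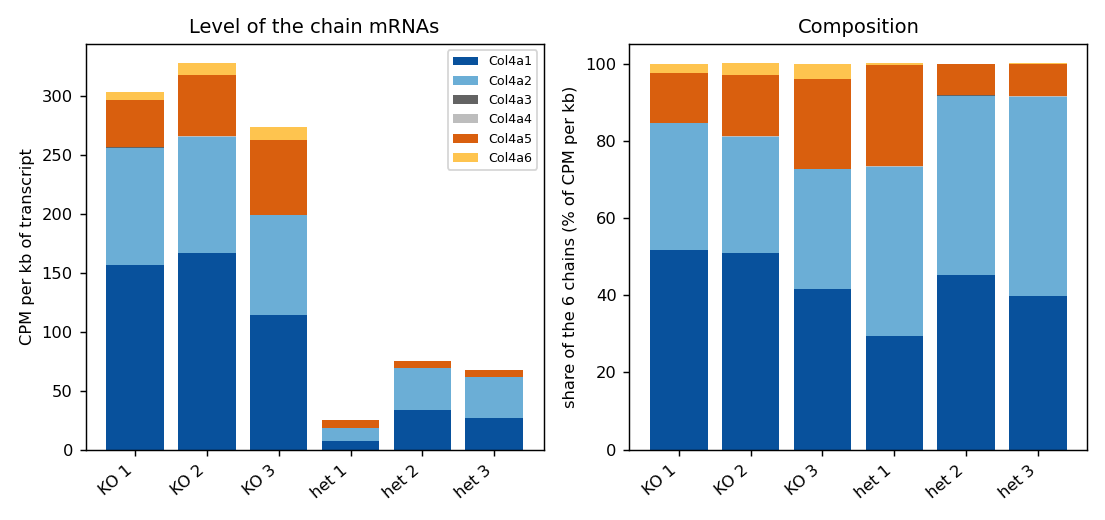
Left, level of the 6 chain transcripts in CPM per kilobase of transcript, stacked for each of 3 knockout (KO) and 3 het clones. Right, the same as a share of their sum, in percent; the knockout columns reach 275 to 328 CPM per kilobase and the het columns 25 to 75.4, and Col4a3 and Col4a4 are too low to see.

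Counts of each chain gene came mostly from 1 full-length transcript, except for Col4a5. Col4a1-201 carried 99.1% of Col4a1 counts in knockout and 98.4% in het clones, and was higher in knockout clones at 865 ± 127 CPM, against 125 ± 75.2 CPM in het clones (log2 fold change 2.86, edgeR adjusted p = 0.0337). Col4a2-201 averaged 553 ± 50.7 CPM in knockout and 133 ± 64.8 CPM in het clones (2.12, adjusted p = 0.0339), and Col4a6-201 59.3 ± 13 CPM in knockout and 0.281 CPM in het clones (7.77, adjusted p = 0.00278). Over all 34655 transcripts tested, 4.16% passed as higher in knockout clones. The calls of Col4a1-201 and Col4a2-201 ended without any 1 of the clones other than het replicate 1, with adjusted p of 0.0671 to 0.111 and 0.0707 to 0.114, and the change of Col4a6-201 was 8.94 without het replicate 1.

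Col4a5 was read from 3 protein-coding transcripts, all higher in knockout clones. Col4a5-202 averaged 213 ± 37.2 CPM in knockout and 20.7 ± 4.53 CPM in het clones (log2 fold change 3.44, edgeR adjusted p = 0.00117). Col4a5-201 averaged 52.2 ± 24.3 CPM in knockout and 11.5 ± 2.72 CPM in het clones (2.25, adjusted p = 0.0271), a call that ended without knockout replicate 2 or 3 (adjusted p = 0.0975 and 0.0585) or without het replicate 1, 2 or 3 (0.0665, 0.0978 and 0.0812). The shorter Col4a5-204 averaged 36.5 CPM in knockout and 3.48 CPM in het clones (3.46, adjusted p = 0.00216). Col4a5-201 and Col4a5-202 differ at the ends, where Col4a5-202 has 1 first exon of 431 bases (141475385 to 141475815) and Col4a5-201 splits that stretch into exons of 57 and 177 bases. Col4a5-202 made up 71.1 ± 4.45% of Col4a5 counts in knockout and 57.5 ± 8.39% in het clones, and Col4a5-201 16.6 ± 4.62% in knockout and 32.6 ± 9.53% in het clones (both exact permutation p = 0.1, the smallest possible). These shares rest on the authors' assignment of reads between nearly identical transcripts.

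In the authors' deposited table of transcript comparisons, the log2 fold change was 7.73 for Col4a6-201 (adjusted p = 3.64e-57), 3.40 for Col4a5-202 (8.67e-35), 2.82 for Col4a1-201 (2.85e-09), 2.09 for Col4a2-201 (8e-08) and 2.22 for Col4a5-201 (2.18e-07). The authors' deposited table also gave adjusted p = 0.0268 for the minor Col4a1-204 and 0.031 for Col4a1-203, for which the fit here gave 0.129 and 0.2. Sizes were close in both sources, and the adjusted p-values of the authors' deposited table were smaller throughout. Antisense genes, Gm15418 and Gm15419, are annotated over Col4a1 and Col4a2. No source says whether reads were assigned by strand, so reads of the antisense genes and of the overlapping first exons of this pair may not be separable.

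Genes beside the chain loci had smaller fold changes than the chains that passed. Of 8 tested genes starting within 1 Mb of Col4a1/Col4a2, 0 passed by edgeR, and their median log2 fold change was -0.31. At an unadjusted p under 0.05, 4 of the 8 passed, against 41.4% of all genes, and by DESeq2 and by limma-voom 1 each, Rab20. The nearest were Irs2 (-0.48), Abhd13 (0.04) and Lig4 (0.17) beyond Col4a1, of which only Irs2 is within 1 Mb, and Rab20 (0.57, edgeR adjusted p = 0.0543), Naxd (-0.14) and Cars2 (-0.51) beyond Col4a2. Rab20, a small GTPase of vesicle traffic that starts 29.4 kb from Col4a2, was at 9.06 ± 0.885 CPM in knockout and 6.08 ± 0.145 CPM in het clones. Of 6 tested genes near Col4a3/Col4a4, 0 passed by edgeR, 0 at an unadjusted p under 0.05 and 0 by DESeq2 and limma-voom, with a median of 0.15. They were Rhbdd1 (-0.02), Irs1 (0.16) and Gm9747 (0.15) beyond Col4a4, and Mff (0.14), Agfg1 (0.07) and Ccl20 (0.90, adjusted p = 0.146) beyond Col4a3. Mff, which acts in mitochondrial fission, starts only 2.83 kb past Col4a3 and was at 95.8 ± 7.3 CPM in knockout and 86.8 ± 8.14 CPM in het clones.

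Around Col4a5/Col4a6, 3 of 8 tested genes passed as higher in knockout clones and 1 as lower, with a median of 0.19; on chromosome X as a whole the shares were 17% higher and 13.5% lower. Mid2, an E3 ubiquitin ligase that binds microtubules, averaged 56.2 ± 6.46 CPM in knockout and 30.4 ± 4.72 CPM in het clones (log2 fold change 0.89, edgeR adjusted p = 0.00688). Nxt2, of mRNA export, averaged 24.6 ± 3.66 CPM in knockout and 16.6 ± 0.954 CPM in het clones (0.56, adjusted p = 0.0285). Tmem164 was lower, at 68 ± 3.05 CPM in knockout and 94 ± 5.78 CPM in het clones (-0.47, adjusted p = 0.0114). The nearest genes on the Col4a6 side, Atg4a (-0.07, adjusted p = 0.679) and Psmd10 (0.03, 0.867), did not pass, nor did Acsl4 (0.34, 0.243) on the Col4a5 side. Of these 8 genes, 1 passed without knockout replicate 1 or 2 and 2 passed without het replicate 2 or 3. The Tmem164 call ended without knockout replicate 1 or 2 (adjusted p = 0.05 and 0.0563), and Acsl4 passed without het replicate 1 (0.57, adjusted p = 0.0253). With 1 clone left out, Nxt2 kept its call only without het replicate 1, and the other omissions gave adjusted p of 0.0527 to 0.0888. Its call also ended with library totals (0.0566), on FPKM (0.0852 to 0.0865) and with the authors' transcripts (0.168, log2 fold change 0.28).

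**Figure D4:**
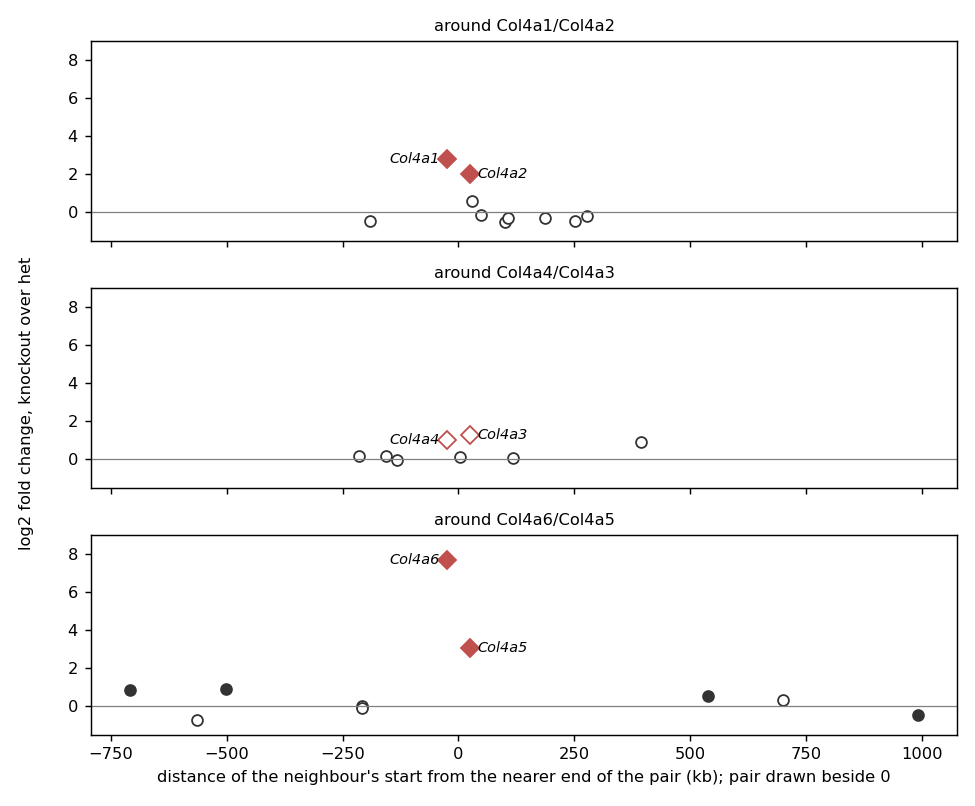
Log2 fold change, knockout over het, of genes starting within 1 Mb of each chain pair against their distance from the pair in kilobases (circles), with the chain genes drawn as red diamonds beside 0. Filled symbols passed the test and open ones did not; the chains that passed lie at 2.02 to 7.71 and their neighbours between -1 and 1.

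Among genes whose products share the basement membrane with collagen IV, members passed in both directions. Of 23 tested, 4 were higher in knockout clones (17.4%, against 13.9% of all genes), 8 were lower (34.8%, against 14.2% of all genes) and 11 did not pass, with a median log2 fold change of -0.35. Lamb1, the laminin beta chain of most early basement membranes, was at 508, 484 and 451 CPM in knockout clones, against 107, 62.1 and 36.9 CPM in het clones (log2 fold change 2.81, edgeR adjusted p = 0.00383). It was far higher in every knockout clone, with het replicate 1 the highest control. Tinagl1 (1.51, adjusted p = 0.0168), Npnt (2.33, 0.0323), which encodes an integrin ligand, and Hspg2 (0.51, 0.0362), the gene of perlecan, also passed. Nidogen-2, which bridges laminin and collagen IV, went the other way, as Nid2 averaged 1.5 ± 0.555 CPM in knockout and 63.8 ± 11 CPM in het clones (-5.38, adjusted p = 8.23e-05). Fbln2 averaged 2.53 ± 0.637 CPM in knockout and 639 ± 307 CPM in het clones (-7.98, adjusted p = 0.000247). Col18a1 (-2.28, 0.00154), another basement membrane collagen, and Smoc1 (-4.67, 0.00375) were also lower. Sparc, a collagen-binding matricellular protein, was at 712 ± 119 CPM in knockout and 906 ± 195 CPM in het clones and did not pass (adjusted p = 0.255), nor did Lama5 (0.64, adjusted p = 0.0556), which passed with DESeq2 (0.00766) and without a filter on low counts (0.0406).

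In the basement membrane list only Lamb1 of the 4 higher genes kept its call with every clone left out in turn. The list's higher count was 1 without knockout replicate 1 or het replicate 2, and 2 without knockout replicate 2 or het replicate 3. Tinagl1 failed without knockout replicate 1 or 2 or het replicate 2 (edgeR adjusted p of 0.0616 to 0.065), and Npnt without knockout replicate 1 or 3 or het replicate 2 or 3 (0.0553 to 0.0864). Hspg2 kept its call only without knockout replicate 3, and the other omissions gave adjusted p of 0.0541 to 0.139. The Smoc1 change was -5.68 without knockout replicate 3.

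Of 28 tested genes listed for collagen biosynthesis and export, 6 were higher in knockout clones (21.4%), 2 were lower (7.14%) and 20 did not pass. The median log2 fold change was 0.06. The list includes Col4a3bp (0.10, edgeR adjusted p = 0.576), a gene of lipid transfer rather than of collagen processing. P3h2, a prolyl 3-hydroxylase that acts on collagen IV, was at 68.5, 75.7 and 58.2 CPM in knockout clones, against 9.63, 23 and 10.5 CPM in het clones (log2 fold change 2.22, edgeR adjusted p = 0.00619). Its knockout clones all lay well above the het clones, and het replicate 2 was the highest control. Tmem38b, an endoplasmic reticulum cation channel needed for collagen maturation, averaged 20.9 ± 1.56 CPM in knockout and 10.7 ± 1.1 CPM in het clones (0.97, adjusted p = 0.00449). Of the hydroxylases, P4ha1 (0.55, 0.00737) and Plod1 (0.53, 0.0159) were higher and P4ha2 was lower (-0.77, 0.00799), so the alternative prolyl 4-hydroxylase alpha subunits moved in opposite directions. Sec24d, a coat protein of the vesicles that leave the endoplasmic reticulum, was lower (-0.71, adjusted p = 0.0205). The most abundant members that did not pass were P4hb, at 674 ± 91 CPM in knockout and 877 ± 103 CPM in het clones (adjusted p = 0.118), and Pdia3, at 505 ± 50.3 CPM in knockout and 588 ± 29 CPM in het clones (0.217). The higher count was 3 without knockout replicate 2 or het replicate 2, and the lower count 1 without het replicate 2 or 3, where Sec24d failed (0.0599 and 0.0565). Plod1 failed without knockout replicate 2 (0.0544) or het replicate 2 or 3 (0.0585 and 0.0535).

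Of 11 tested receptor genes, 1 was higher in knockout clones (9.09%), 2 were lower (18.2%) and 8 did not pass, and the median log2 fold change was 0.27. The discoidin domain receptors, tyrosine kinases that bind collagens, went in opposite directions. Ddr1 averaged 79.5 ± 16 CPM in knockout and 51.3 ± 2.04 CPM in het clones (0.63, edgeR adjusted p = 0.0229), and Ddr2 220 ± 24.1 CPM in knockout and 411 ± 56 CPM in het clones (-0.90, adjusted p = 0.00538). Itga11, an integrin subunit best known for binding fibrillar collagen, was lower, at 0.148 CPM in knockout and 3.42 CPM in het clones (-4.43, adjusted p = 0.00429), and its change was -5.11 without knockout replicate 3. Itgb1, the shared beta subunit of the collagen-binding integrins, was at 1010 ± 169 CPM in knockout and 840 ± 88.5 CPM in het clones and did not pass (adjusted p = 0.281). Itgav did not pass (0.42, adjusted p = 0.0543), but passed without knockout replicate 3 (0.0253) or het replicate 1 (0.0478), where the higher count was 2. Ddr1 failed, and the higher count was 0, without knockout replicate 2 (0.0713) or het replicate 2 or 3 (0.0798 and 0.0665).

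Of 20 tested genes for proteases that cleave collagen IV and their inhibitors, 3 were higher in knockout clones (15%), 5 were lower (25%) and 12 did not pass, with a median log2 fold change of -0.26. Mmp2, the gelatinase that digests collagen IV, was at 1.59, 1.6 and 1.09 CPM in knockout clones, against 4.19, 46 and 49.4 CPM in het clones (log2 fold change -4.54, edgeR adjusted p = 0.0199). Het replicate 1 was nearest to the knockout clones and the other het clones were far above. Mmp14, the membrane protease that activates that gelatinase, averaged 282 ± 33.1 CPM in knockout and 470 ± 44.8 CPM in het clones (-0.74, adjusted p = 0.00865), and Mmp16 was also lower (-1.75, 0.00977). The inhibitor Timp3 was lower, at 82 ± 40.6 CPM in knockout and 514 ± 50.4 CPM in het clones (-2.65, adjusted p = 0.00534), whereas Timp1 was higher, at 204 ± 20.5 CPM in knockout and 135 ± 13.2 CPM in het clones (0.60, adjusted p = 0.0117). Mmp10 was higher, at 1.56 CPM in knockout and 0.0387 CPM in het clones (adjusted p = 0.00223), where each het library had at most 3 counts. Mmp13 was higher, at 3.46 CPM in knockout and 0.3 CPM in het clones (3.51, adjusted p = 0.0375). Timp2, at 771 ± 4.89 CPM in knockout and 938 ± 240 CPM in het clones (adjusted p = 0.33), and Ctsb, at 747 ± 24.6 CPM in knockout and 661 ± 120 CPM in het clones (0.435), did not pass.

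In the protease list 3 genes were lower without knockout replicate 1, and 2 were lower without knockout replicate 2. The Mmp2 call ended without any 1 of the knockout clones (edgeR adjusted p of 0.0742 to 0.0807), those of Timp1 (0.0577) and Mmp14 (0.0502) without knockout replicate 2, and that of Mmp13 without any 1 of the het clones (0.0592 to 0.117). Without knockout replicate 3, which had 8.12 of its CPM, the Mmp13 change was 1.89.

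**Figure D5:**
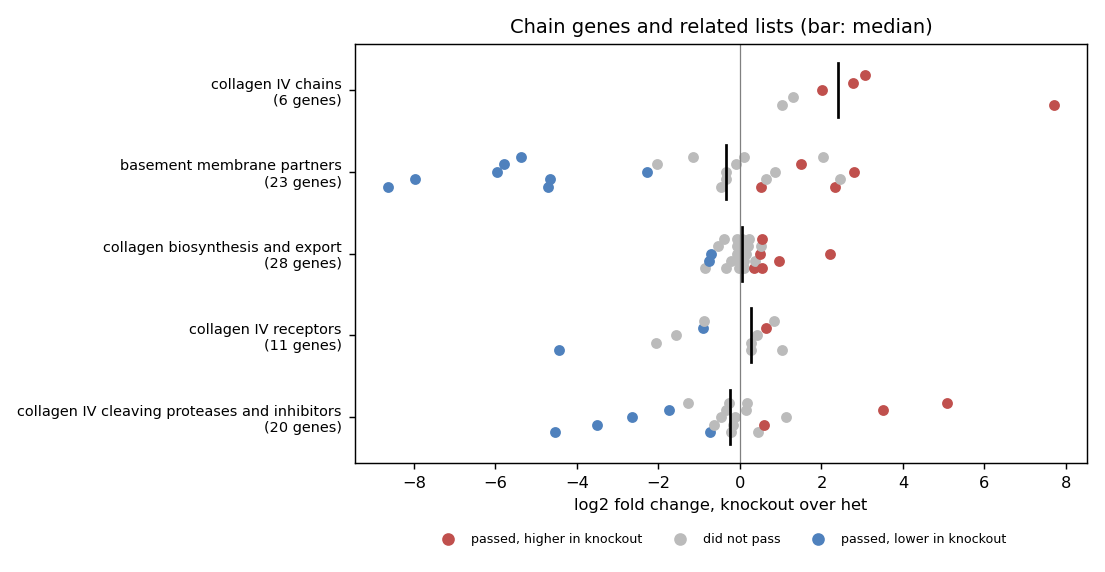
Log2 fold change, knockout over het, of the 6 chain genes and of the tested members of 4 related lists, 1 point per gene, with a bar at each list's median. Red passed as higher in knockout clones, blue as lower and grey did not pass; the chain median is 2.40 and the list medians run from -0.35 to 0.27.

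Across the 6 clones, the gene whose log2 CPM was most like that of Col4a1 among 10462 protein-coding genes was its pair partner Col4a2, with a Pearson r of 0.9982, and the reverse held for Col4a2. Next for Col4a1 were Adgrg1 (0.9948), Tmem159 (0.9946), Scap (0.9945) and Lyst (0.9939), and next for Col4a2 were Scap (0.9980), Adgrg1 (0.9961), Ctbs (0.9952) and Tmem159 (0.9946). Adgrg1, an adhesion receptor, was at 33, 34 and 34.9 CPM in knockout clones, against 4.97, 13.2 and 12.5 CPM in het clones, with het replicate 1 lowest as for both chains and for Scap. Scap, the escort protein of the sterol-sensing pathway, varied over a small range, at 111, 112 and 107 CPM in knockout and 73.3, 87.3 and 90.4 CPM in het clones. For Col4a5 the 5 most alike were Ubxn2b (0.9997), Etfdh (0.9988), Psen2 (0.9986), Incenp (0.9981) and Hoxa3 (0.9981). For Col4a6 they were Zhx2 (0.9995), Pef1 (0.9993), Mtx1 (0.9985), Nelfcd (0.9978) and Selenom (0.9976). The X-linked pair correlated at 0.99 with each other and at 0.82 to 0.88 with Col4a1 and Col4a2. These values describe shape and not size, since Ubxn2b had a log2 fold change of 0.69 and Col4a5 one of 3.08.

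The clones form separate groups by genotype, and r over all 6 includes that split. An r of at least 0.95 was reached by 249 genes for Col4a1, 230 for Col4a2, 528 for Col4a5 and 572 for Col4a6. It was reached by 20 genes for Col4a3 and 12 for Col4a4, the chains with the fewest counts. The most alike were Mtg1 (0.9817), Dcaf4 (0.9814), Ccnd3 (0.9788), Cdc14a (0.9785) and Dennd1b (0.9769) for Col4a3. For Col4a4 they were Tspo (0.9869), Hlcs (0.9693), Cep41 (0.9673), Syvn1 (0.9671) and Slc39a1 (0.9658). All r values share the same 6 libraries.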

How the data were processed

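RNA of 3 knockout and 3 het clones was analysed. Per the submitters' processing notes, reads were processed with Trimmomatic 0.36, kallisto 0.42.5 and edgeR on GRCm38.p4, and the authors deposited estimated counts per transcript, FPKM values per transcript, and a table of log2 fold changes with p-values. Estimated counts were assigned to genes by GENCODE M21, or by the authors' table for 260 of 96626 transcripts, summed per gene and rounded; 1153 transcripts matched no gene and held at most 0.0278% of a library. Genes were filtered (filterByExpr, counts of 10 and 15), scaled by TMM and tested with edgeR 4.0.16 in R 4.3.3 (robust quasi-likelihood F test, two-sided), adjusted by Benjamini-Hochberg over 12745 genes at 0.05. CPM use the scaled library sizes, and standard errors derive from F. Log2 ratios within a pair used a pseudocount of 0.5. A floor of 3 counts per library equals 0.155 to 0.188 CPM, and it and the pooled interval cover counting error only. Alternatives used DESeq2 1.42.0, limma 3.58.1, other scalings and filters, FPKM with pseudocounts of 1 and 0.1, and each clone left out. The fit was tested on simulated data. The genes named are Macf1, the chains, up to 4 passing members per list and direction with the smallest adjusted p and the 2 most abundant that did not pass, the 3 nearest tested genes on each side of a pair, and the 5 genes most like each chain at 5 CPM or more in 1 group; a prior count of 2 was used for likeness. The chains and all lists were chosen with earlier results of these data known.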

Additional observations from a re-analysis of the deposited data

How the results depend on the processing

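Of the chain results under alternatives, 87 kept their direction and side of the threshold and 4 lost the call, those of Col4a1 and Col4a2 without knockout replicate 1 or 2. Leaving out each clone gave log2 fold changes of 2.35 to 3.13 for Col4a1, 1.65 to 2.26 for Col4a2, 1.09 to 1.53 for Col4a3, 0.71 to 1.73 for Col4a4, 2.90 to 3.23 for Col4a5 and 7.20 to 8.88 for Col4a6. It gave 2 to 4 chains passing as higher, 1566 to 3825 genes passing (3585 with all clones; 1892 without knockout replicate 1 and 1566 without knockout replicate 2), 695 to 1769 higher and 871 to 2056 lower. Counts higher and lower ran from 1 to 4 and 6 to 9 for basement membrane partners, 3 to 5 and 1 to 3 for biosynthesis and export, 0 to 2 and 2 to 3 for receptors, and 2 to 3 and 2 to 6 for proteases and inhibitors. Of the neighbours of Col4a5/Col4a6, 1 to 5 passed. The pair log2 ratio differences ran from 0.69 to 1.02 for Col4a1/Col4a2, 4.27 to 5.64 for Col4a6/Col4a5 and -0.49 to 0.42 for Col4a4/Col4a3, which turned positive without knockout replicate 1 (0.04) or het replicate 3 (0.42). Where an arm held 2 clones the spread was pooled over both groups.

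Removing genes on chromosomes X and Y left 2 chains higher because it removes Col4a5 and Col4a6. The Col4a6 change was 3.28 on the log2(FPKM + 1) scale and 6.05 on log2(FPKM + 0.1), and the Col4a6/Col4a5 difference 2.96 on FPKM, since a pseudocount compresses low values. DESeq2 called 7 basement membrane partners higher and limma-voom 5 lower. Receptors higher numbered 2 with library totals or DESeq2. The FPKM settings and the transcripts of the authors' table each gave 1 receptor lower and 1 protease-list gene higher, log2(FPKM + 1) with or without its filter gave 3 of that list lower, and DESeq2, limma-voom, the FPKM settings and the authors' transcripts each passed 1 neighbour of Col4a1/Col4a2. Mmp2 failed with limma-voom (adjusted p = 0.187), on log2(FPKM + 1) (0.0591) and without a filter (0.0624), Mmp13 with limma-voom (0.0946), and Npnt without a filter (0.0583). Itgav passed with library totals (0.0332) and DESeq2 (0.0258). Neighbours with changes near 0 turned sign. Without each clone, Abhd13 ran from -0.04 to 0.09, Gm9747 from -0.16 to 0.54, Irs1 from -0.03 to 0.40, Rhbdd1 from -0.11 to 0.08 and Psmd10 from -0.05 to 0.11. Abhd13 was -0.00 and Psmd10 -0.01 with the authors' transcripts, and Rhbdd1 0.00 without a filter and 0.02 on the FPKM settings. The cause of the other changes was not tested. No paired analysis was possible because the clones carry no shared replicate numbers in the labels.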
